A study of Mus musculus with 24 samples.

Results

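The nuclear genes of oxidative phosphorylation (OXPHOS) were followed by complex in mouse livers with and without the hepatocyte transcription factors E2F7 and E2F8, before and after acetaminophen (APAP) injury. Members were the genes whose symbol begins with Nduf (complex I), is *Sdha*, *Sdhb*, *Sdhc* or *Sdhd* (complex II), or begins with Uqcr (complex III), Cox4 to Cox8 (complex IV) or Atp5 (complex V), and that had at least 10 counts in at least 4 libraries. Of 24411 genes counted, 92 symbols matched and 86 were kept: 44 of complex I, 4 of complex II, 8 of complex III, 13 of complex IV and 17 of complex V.

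Complexes I to IV form the electron transport chain of the inner mitochondrial membrane, and complex V is the ATP synthase. Complex I takes electrons from NADH, complex II (succinate dehydrogenase, also an enzyme of the TCA cycle) takes them from succinate, complex III passes them to cytochrome c, and complex IV passes them to oxygen. The protons pumped by complexes I, III and IV drive ATP synthesis by complex V. Mitochondrial DNA encodes subunits of each complex except complex II, and nuclear genes encode the rest. Hepatocytes are rich in mitochondria, and in APAP overdose the reactive metabolite of the drug binds mitochondrial proteins.

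All mice were males aged 2.5 months and were fasted for 16 h, which in the APAP mice came before the injection. The mice at 0 h were fasted and untreated, so time after APAP cannot be told apart from time since that fast. LKO mice carried Alb-Cre (Tg/0), which is active in cells of the hepatocyte lineage from development onward, together with homozygous floxed E2f7 and E2f8 alleles and the R26R mTmG reporter on a mixed, mainly FVB background. Their controls, labelled WT, were floxed littermates without Cre. At 0 h this cohort had 4 control and 4 LKO livers, 1 mouse to a library. The injured livers were sampled 12, 24, 48, 72 and 96 h after APAP was given at 300 mg/kg, with RNA of 3 mice pooled into 1 library per genotype and time. HKO mice were floxed mice given AAV8-TBG-Cre, a hepatocyte-directed virus, at 2 months of age, and their controls received AAV8-TBG-Null. That cohort had 3 libraries per group, at 0 h alone.

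The 24 libraries held 12665686 to 19499897 gene-assigned reads, and the members took 1.19% to 1.78% of them. Values are given as CPM, counts relative to all gene-assigned reads of the library with TMM scaling within a cohort. A count of 3 corresponded to 0.154 to 0.237 CPM before scaling. The whole-gene count of *E2f8* was 189 to 320 in the 0 h controls and 320 to 592 in the LKO livers, and it was 235 to 382 in the AAV controls and 464 to 1310 in the HKO livers. *E2f7* had at most 66 counts in any library. Whole-gene counts include exons outside the deleted part and so do not check the deletion, and the libraries are named by their labels. Of 10 hepatocyte markers, 9 passed the filter on low counts, and their summed level ran from 60790 to 137453 CPM over the LKO cohort. *Ass1*, the other one, was at or near 0 throughout, and since only uniquely mapped reads were counted, its level is uncertain.

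In the 0 h controls, the levels of complexes II to V were close to each other when divided by exon length, while complex I was lower. The median level was 72.2 CPM per kb for complex I, 183 for complex II, 229.6 for complex III, 214 for complex IV and 205 for complex V. The genes with the highest level per length were *Atp5b*, the catalytic beta subunit of the ATP synthase, at 802 CPM per kb, and *Cox6a1* at 746, *Cox4i1* at 653 and *Atp5g3* at 551 CPM per kb.

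For most subunits with several isoform genes, 1 isoform made up nearly all of the level. *Cox4i1* stood at 653 CPM per kb against 0.208 for *Cox4i2*. *Cox6a1* stood at 746 against 0.0434 for *Cox6a2*, the heart and muscle isoform. *Cox6b1* stood at 294 against 1.05 for *Cox6b2*, the testis isoform. *Cox7a2* stood at 214 against 96.6 for *Cox7a2l*, a factor of supercomplex assembly, and 1.78 for *Cox7a1*, the heart and muscle isoform. *Cox8a* stood at 499.7 against 0.167 for *Cox8b*, and *Ndufa4* stood at 541 against 2.34 for *Ndufa4l2*. The 3 genes that encode the c subunit of the ATP synthase differed less, with 551 CPM per kb for *Atp5g3*, 142 for *Atp5g2* and 40.8 for *Atp5g1*. The order of *Atp5g2* and *Atp5g1* depends on the exon length used, which was 731 bases for the first and 4912 for the second. In counts over the 24 libraries *Atp5g1* was the higher, at 1833 to 4834 against 932 to 2614. The muscle creatine kinase gene *Ckm* was at 0 in all 24 libraries.

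The 6 symbols that missed the count filter were *Cox4i2*, *Cox6a2*, *Cox7b2*, *Cox8b*, *Cox8c* and *Ndufs5*. *Cox4i2* reached 14 counts at most, *Cox6a2* reached 6, *Cox8b* reached 2 and *Cox8c* reached 1. *Cox7b2* and *Ndufs5* were listed at 0 in every library. *Ndufs5* encodes a complex I subunit found in most tissues, and since only uniquely mapped reads were counted, its level and that of other genes with near-identical copies are uncertain. Several symbols of the rule name proteins that are not subunits of the complex. The symbols that begin with Ndufaf name assembly factors of complex I, *Ndufa4* is counted here in complex I although its protein is known as a complex IV subunit, and *Atp5s* and *Atp5sl* name proteins outside the ATP synthase.

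Promoter sequence is shown for 4 members that were called after APAP, since the results below turn on them. The 140 bases run from 120 before to 20 after the RefSeq start on GRCm38.p6, 5′ to 3′ on the strand of the gene, and capitals mark CCGGAAG, a core bound by ETS factors such as GABPA, or GCATGCGC, the NRF1 core. The windows are chr2:119662815-119662954 (minus strand) for *Ndufaf1*, chr4:140961151-140961290 (plus) for *Sdhb*, chr9:108936528-108936667 (plus) for *Uqcrc1* and chrX:106015580-106015719 (plus) for *Cox7b*.
Ndufaf1: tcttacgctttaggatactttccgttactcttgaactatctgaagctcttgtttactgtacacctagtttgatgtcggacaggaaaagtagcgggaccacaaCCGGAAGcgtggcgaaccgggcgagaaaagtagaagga
Sdhb: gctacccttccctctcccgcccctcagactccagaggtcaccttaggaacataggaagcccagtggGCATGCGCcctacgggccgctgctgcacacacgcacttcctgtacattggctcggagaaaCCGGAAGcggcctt
Uqcrc1: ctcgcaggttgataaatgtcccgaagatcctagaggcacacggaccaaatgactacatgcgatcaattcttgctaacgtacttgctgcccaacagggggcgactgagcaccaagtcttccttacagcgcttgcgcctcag
Cox7b: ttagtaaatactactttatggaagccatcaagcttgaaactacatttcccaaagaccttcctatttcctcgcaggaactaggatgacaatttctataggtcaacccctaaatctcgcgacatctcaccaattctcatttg

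Both cores were present in the printed stretch of *Sdhb*, the ETS core alone was present in that of *Ndufaf1*, and neither stood in that of *Uqcrc1* or *Cox7b*. The shares that follow were counted over the whole RefSeq windows, which reach further on both sides than the printed bases, and the whole window of *Uqcrc1* did hold GCATGCGC. Windows were found for 70 of the 86 members, 75 windows in all. Searched on both strands, CCGGAAG was in 22.7% of the members' windows and in 8.86% of all 32851 promoter windows. GCATGCGC was in 16.0% against 2.71%, and AAGATGGC, the YY1 core, was in 12.0% against 2.75%. TATAAA was in 8.0% of the members' windows against 13.6% of all. These shares describe letters and say nothing of binding in these livers.

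At 12 h after APAP, 21 of the 86 members fell and none rose, and most of those that fell belonged to complex I. A member was called here and below when it changed by 1.5-fold or more with an adjusted p under 0.05 in edgeR's quasi-likelihood test, with Benjamini-Hochberg adjustment over all genes. The fit had genotype as a covariate, so that each time point rests on 2 pools, 1 per genotype, against 8 mice at 0 h. Over all 13328 genes tested, 17% were called higher and 14.5% lower at 12 h. Of the 21 members, 15 belonged to complex I, 3 to complex IV and 3 to complex V, and the 15 were 9 of the 28 accessory subunits, 3 of the 7 assembly factors, 2 of the 7 core subunits and *Ndufa4l2*. The median change over the 86 members was -0.42 (log2), with 75 lower and 11 higher, while the median of all genes was -0.004. In liver tissue, fewer cells of a type and less RNA per cell cannot be told apart. The 5 time points share the same 8 mice at 0 h, so their counts are not independent of each other.

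Among the members called at 12 h, the 6 largest decreases were in *Ndufa4l2*, *Ndufaf2*, *Ndufaf1*, *Ndufa3*, *Ndufc1* and *Ndufaf6*. *Cox7a1* (-1.47, adjusted p = 0.0992) and *Atp5k* (-1.31, adjusted p = 0.0789) had values in the same range and were not called. *Ndufaf1*, an assembly factor of the membrane arm, measured 30.5, 27.9, 38.1 and 31.9 CPM in the 0 h controls and 26.3, 29.2, 34.9 and 31.3 CPM in the LKO livers. In the 12 h pools it measured 11.9 CPM in the control and 11.0 CPM in the LKO. Both pools lay below every 0 h liver, and the log2 change was -1.45 (SE 0.22, adjusted p = 0.0001).

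*Ndufc1*, an accessory subunit of the membrane arm, measured 42.0, 46.7, 50.7 and 41.1 CPM in the 0 h controls and 35.5, 41.1, 40.4 and 51.0 CPM in the LKO livers. Its 12 h pools held 20.1 CPM (control) and 20.2 CPM (LKO), again below all 8 livers, with a log2 change of -1.11 (SE 0.19, adjusted p = 0.0004). *Ndufaf2*, an assembly chaperone, ran from 8.03 to 13.6 CPM over the 8 livers at 0 h and stood at 5.28 CPM in the control and 2.65 CPM in the LKO pool at 12 h. Its log2 change was -1.53 (SE 0.29, adjusted p = 0.0009). The decreases of *Ndufaf1*, *Ndufc1* and *Ndufaf2* were called whichever single library was left out.

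*Ndufaf6*, an assembly factor of the peripheral arm, ran from 14.6 to 22.5 CPM at 0 h and measured 7.72 and 9.58 CPM in the control and LKO pools at 12 h, a log2 change of -0.98 (SE 0.20, adjusted p = 0.0017). *Ndufa3*, an accessory subunit, ran from 25.2 to 82.9 CPM at 0 h, with 1 control liver, replicate 3, at the low end, and the pools at 23.8 and 22.8 CPM lay just below it (log2 change -1.37, SE 0.35, adjusted p = 0.0065). *Ndufa4l2*, the paralog of *Ndufa4* known from low-oxygen states, was scarce throughout, at 1.48 to 3.23 CPM at 0 h and 0.61 and 0.482 CPM at 12 h (log2 change -2.06, SE 0.55, adjusted p = 0.0087). The calls of *Ndufaf6*, *Ndufa3* and *Ndufa4l2* were lost without the 12 h control pool.

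The other 15 members called lower at 12 h had log2 changes between -0.96 and -0.60. They were *Ndufa1*, *Ndufa5*, *Ndufa6*, *Ndufa13*, *Ndufb2*, *Ndufb4*, *Ndufs6*, *Ndufs7* and *Ndufv2* of complex I, *Cox6c*, *Cox7a2* and *Cox7c* of complex IV, and *Atp5j*, *Atp5j2* and *Atp5sl* among the Atp5 symbols. Among the 7 core subunits of complex I, which carry its redox centres, *Ndufs7* (-0.77, adjusted p = 0.0063) and *Ndufv2* (-0.62, adjusted p = 0.0115) were called, and *Ndufv1*, which binds NADH, was at 0.00. Of these 15 calls, that of *Atp5j2* (adjusted p = 0.0474) was kept in 5 of 18 fits that left out 1 library and that of *Cox7a2* in 14, each in 5 of 7 other settings, which were another test, 2 scalings, 2 filters, another counting and a correction for length and GC content. None of the complex II or III members was called at 12 h. The number called was 9 without the 12 h control pool and 13 without the 12 h LKO pool.

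**Figure D1:**
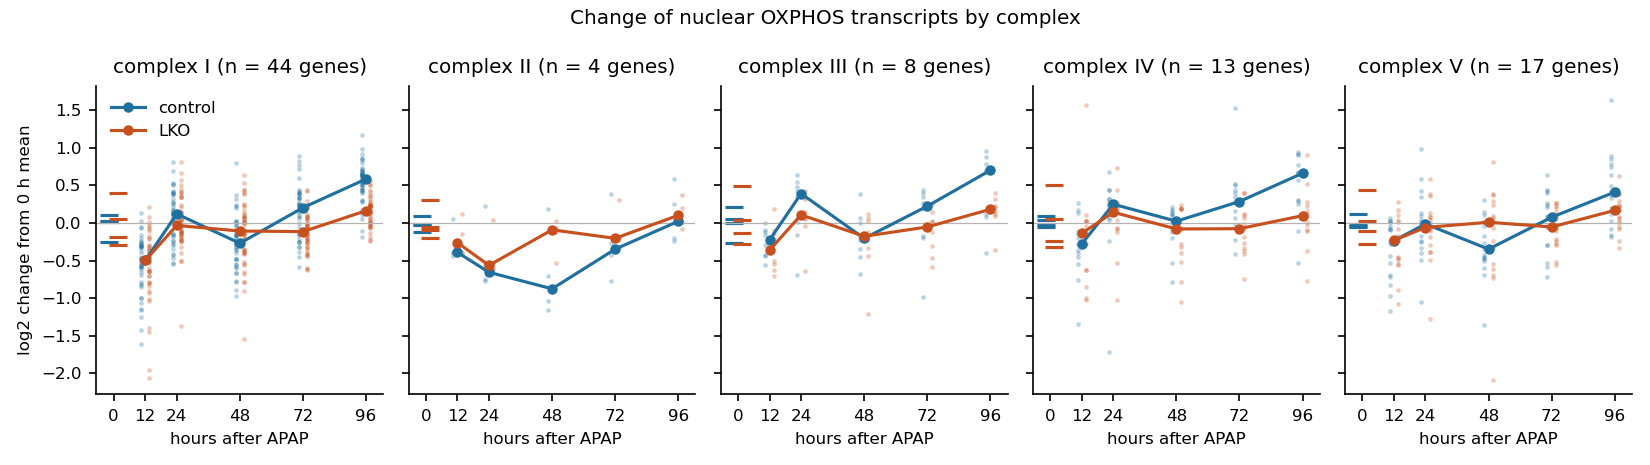
Median log2 change from 0 h of the members of each complex (vertical axis) against hours after APAP (horizontal axis), 1 pool of 3 mice per genotype and time, with the short dashes at 0 h giving each mouse's median against the other mice of its group. Complex I falls furthest at 12 h (-0.50 in both genotypes), complex II at 24 and 48 h in the control pools, and the control medians of complexes I, III, IV and V are above 0.4 at 96 h.

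The median of complex II was lowest at 48 h in the control pools and at 24 h in the LKO pools. The median change of its 4 genes in the control pools, in order from 12 to 96 h, was -0.39, -0.66, -0.88, -0.35 and 0.02. In the LKO pools it was -0.26, -0.56, -0.09, -0.20 and 0.10. *Sdha*, *Sdhb* and *Sdhc* were called lower at 24 h, and *Sdhd*, which anchors the complex in the membrane with *Sdhc*, was not, with a log2 change of 0.11. Over all genes, 14.1% were called higher and 12.1% lower at 24 h, and 5 members were lower and 0 higher, the other 2 being *Uqcrc1* and *Atp5sl*.

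*Sdha*, the flavoprotein subunit that oxidises succinate, measured 602, 672, 526 and 620 CPM in the 0 h controls and 605, 578, 537 and 609.5 CPM in the LKO livers. The control pools then measured 444, 352, 269.1, 352 and 510 CPM at 12, 24, 48, 72 and 96 h, and the LKO pools 527, 377, 402, 468 and 586 CPM. Both pools lay below all 8 livers at 24, 48 and 72 h. The log2 change was -0.71 (SE 0.17, adjusted p = 0.0066) at 24 h and -0.84 (SE 0.18, adjusted p = 0.0041) at 48 h.

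*Sdhb*, the iron-sulfur subunit whose promoter is printed above, measured 264, 270.3, 272 and 268 CPM in the 0 h controls and 232, 238, 254 and 286 CPM in the LKO livers. The control pools measured 205, 160.0, 130.2, 200.025 and 319 CPM from 12 to 96 h, and the LKO pools 193, 174, 232, 219 and 288 CPM. At 24 h both were below every liver at 0 h (log2 change -0.64, SE 0.18, adjusted p = 0.0151). At 48 h the control pool stayed low and the LKO pool was within the range of the 0 h livers. *Sdhc* ran from 181 to 252 CPM at 0 h and stood at 142 and 136 CPM in the control and LKO pools at 24 h (log2 change -0.59, SE 0.17, adjusted p = 0.0175), close to the 1.5-fold limit, and its call was kept in 9 of 18 fits that left out 1 library. No member was called at 24 h without the LKO pool of that time, and 1, *Atp5sl*, was called without the control pool.

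*Uqcrc1*, a core subunit of complex III, was low at both 24 and 72 h while its partner *Uqcrc2* was not called at any time. It measured 356, 375, 438 and 402 CPM in the 0 h controls and 352, 360, 381 and 410 CPM in the LKO livers. The control pools measured 367 (12 h), 242, 244, 198 and 297 CPM (96 h), and the LKO pools 427, 240.1, 298, 249.6 and 292 CPM. From 24 h onward every pool was below every 0 h liver. The log2 change was -0.67 (SE 0.16, adjusted p = 0.0047) at 24 h and -0.78 (SE 0.16, adjusted p = 0.0024) at 72 h. The corresponding change of *Uqcrc2* was between -0.16 and 0.14 over the 5 time points.

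At 48 h, 3 members were lower and 0 higher, against 6.71% and 10% of all genes, and they were *Sdha*, *Ndufv1* and *Atp5sl*. *Ndufv1* ran from 164 to 232 CPM at 0 h and measured 136 CPM in the control and 138 CPM in the LKO pool at 48 h (log2 change -0.59, SE 0.16, adjusted p = 0.0195), a call kept in 10 of 18 fits that left out 1 library and in 3 of the 7 other settings. At 72 h, 4 members were lower and 0 higher, against 5.81% and 11% of all genes. They were *Uqcrc1*, *Ndufs7* (-0.61, adjusted p = 0.0369), *Cox6a1* (-0.59, adjusted p = 0.0183) and *Atp5sl* (-0.64, adjusted p = 0.0469), of which the call of *Ndufs7* was kept in 10, that of *Cox6a1* in 7 and that of *Atp5sl* in 6 of 18 such fits. In the 7 other settings the call of *Ndufs7* was kept in 2, that of *Cox6a1* in 2, that of *Atp5sl* in 1 and that of *Uqcrc1* in 7. Without the control pool of the time point, 0 members were called at 48 h and 0 at 72 h. At 48 h, 10 were called without the LKO pool and 8 without control replicate 3.

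*Atp5sl*, which despite its symbol names a factor of complex I assembly, was called lower at 12, 24 and 48 h in all 7 other settings as well, while 6 of the 7 ended its call at 72 h. It ran from 36.9 to 59.6 CPM at 0 h, and the control pools measured 27.0, 21.5, 17.3, 27.1 and 39.4 CPM from 12 to 96 h against 31.9, 19.5, 31.0, 32.9 and 40.0 CPM in the LKO pools. Its log2 change was -1.19 (SE 0.22, adjusted p = 0.0012) at 24 h. Of the 5 genes for the catalytic F1 part of the ATP synthase, none was called at any time in edgeR, and DESeq2 called *Atp5d* lower at 48 h (-0.61, adjusted p = 0.0247). *Atp5b* ran from 1427 to 1646 CPM at 0 h and measured 1088 CPM in the control and 1158 CPM in the LKO pool at 24 h, a log2 change of -0.44 that passed the adjusted p (0.037) and not the fold limit.

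**Figure D2:**
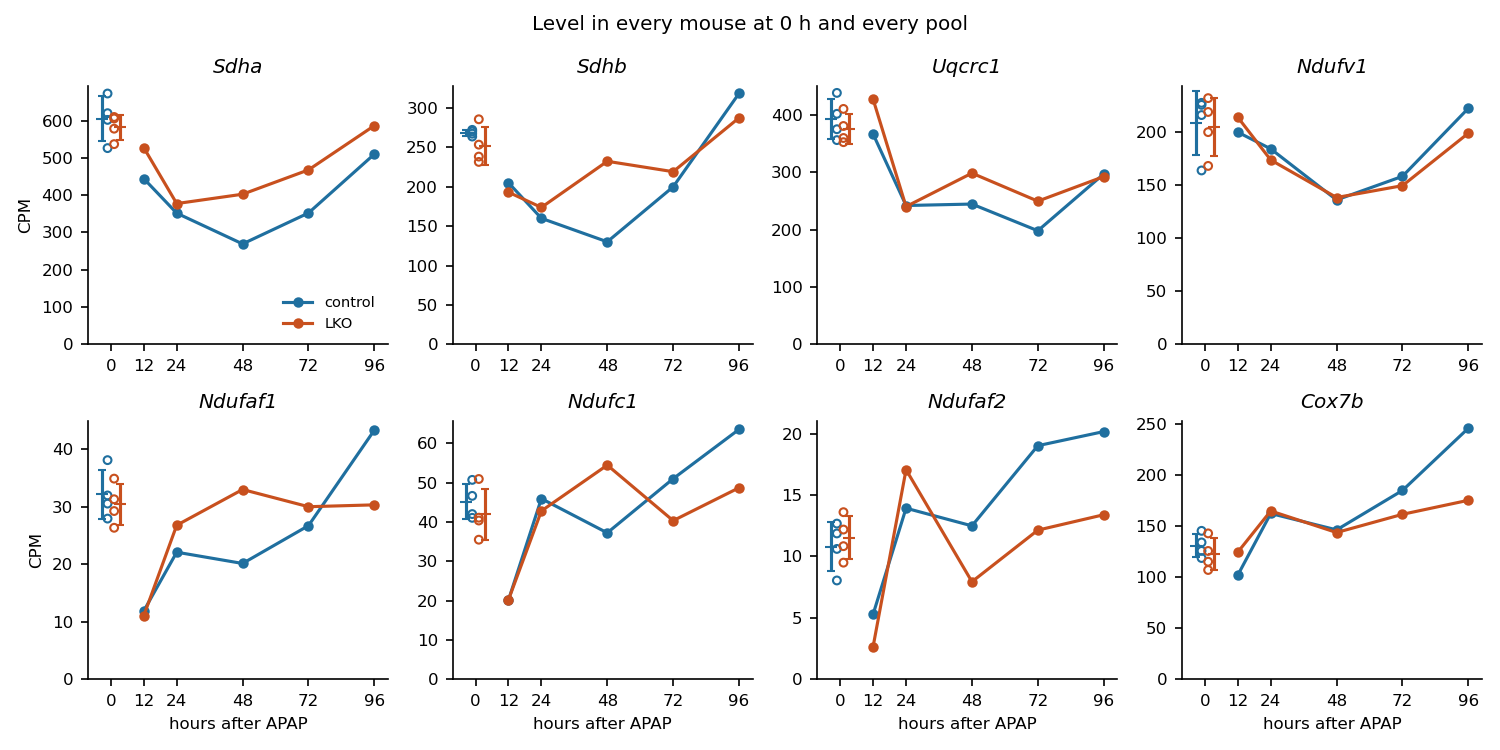
Level in CPM (vertical axis) of 8 members by hours after APAP (horizontal axis), with open circles for single mice and bars for their mean and SD at 0 h, and filled circles for pools of 3 mice, control and LKO. In the control pools Sdha (269.1 CPM) and Sdhb (130.2 CPM) are lowest at 48 h, in the LKO pools they are lowest at 24 h (377 and 174 CPM), Ndufaf1 and Ndufc1 are lowest at 12 h, and Cox7b rises to 246 CPM in the control pool at 96 h.

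Of the 9 hepatocyte markers tested, 2 were called lower at 12 h, 4 lower and 1 higher at 24 h, 2 lower at 48 h, and 0 at 72 and 96 h. Their summed level, to which *Alb* gave more than any other marker, lay within or above the range of the livers at 0 h, at 93080 to 137453 CPM in the 5 control pools against 84032 to 130906 CPM in the 0 h controls, and at 72423 to 109785 CPM in the LKO pools against 60790 to 104172 CPM. The median change of the single markers was -0.29, -1.35, -0.59, -0.46 and 0.30 in the control pools from 12 to 96 h, and -0.20, -0.59, 0.02, 0.07 and -0.05 in the LKO pools. Markers of other cells moved both ways. Of 8 stellate cell and fibroblast markers, 3 were called lower at 12 h, 2 higher and 3 lower at 24 h, 5 higher at 48 h, 8 higher at 72 h and 1 higher at 96 h. Of 8 macrophage markers, 1 was higher and 1 lower at 12 h, 2 higher and 3 lower at 24 h, 3 higher at 48 h, 4 higher at 72 h and 1 higher at 96 h. Of 5 neutrophil markers, 3 were higher at both 12 and 24 h, 2 were higher at 48 h and 1 was higher at 72 h, with 0 lower. Of 6 endothelial markers, up to 2 were called in either direction from 12 to 48 h and 2 were lower at 72 h. Of 5 cholangiocyte markers, 1 was higher at both 12 and 24 h, 2 were higher and 1 lower at 48 h, and 1 was lower at 72 h. In the lists of T and B cells, adipocytes and pancreas few markers were abundant enough to be tested, and *Cd3e* was called higher at 48 h, *Fabp4* higher from 12 to 72 h and *Cela1* lower from 12 to 48 h. The 1 muscle marker tested was not called in edgeR. The summed stellate cell and fibroblast markers stood at 134 to 215 CPM in the 0 h controls and 1156 CPM in the control pool at 72 h, and at 117 to 182 CPM in the 0 h LKO livers and 726 CPM in the LKO pool. The summed macrophage markers stood at 174 to 283 CPM in the 0 h controls and 786 CPM in the control pool at 72 h, and at 186 to 448 CPM in the 0 h LKO livers and 893 CPM in the LKO pool. The summed neutrophil markers stood at 2.48 to 12.1 CPM in the 0 h controls and 32.1 CPM in the control pool at 48 h, and at 2.50 to 8.51 CPM in the 0 h LKO livers and 29.9 CPM in the LKO pool at 24 h. The summed cholangiocyte markers stood at 37.8 to 78.0 CPM in the 0 h controls and at 175 and 218 CPM in the control pools at 12 and 48 h, against 39.5 to 67.3 CPM in the 0 h LKO livers and 36.7 and 87.2 CPM in the LKO pools. That sum does not stand for the list. In the fits over both genotypes, 2 of the 5 markers were higher and 3 lower at 12 h, with a median of -0.01. At 48 h, 2 were higher and 3 lower as well, with a median of -0.68. The summed adipocyte markers stood at 4.66 to 6.15 CPM in the 0 h controls and 63.6 CPM in the control pool at 24 h, and at 4.48 to 8.84 CPM in the 0 h LKO livers and 19.2 CPM in the LKO pool. The summed pancreas markers went the other way, with 40.1 to 59.4 CPM in the 0 h controls and 5.76 CPM in the control pool at 12 h, and 35.4 to 54.5 CPM in the 0 h LKO livers and 4.64 CPM in the LKO pool. The adipocyte and pancreas lists each had 1 marker tested, *Fabp4* and *Cela1*, respectively. Single libraries had up to 5 of the 6 adipocyte markers and up to 4 of the 5 pancreas markers at 0 counts, so these sums describe few genes. The part of these shifts in the members' changes was not tested.

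At 96 h, 74 of the 86 members were above 0 h and 12 below, but 1 passed the test, *Cox7b*, a small subunit of complex IV. Over all genes, 0.338% were called higher and 0.128% lower. *Cox7b* measured 134, 145, 126 and 119 CPM in the 0 h controls, 115, 126, 107 and 143 CPM in the LKO livers, and 246 and 175 CPM in the control and LKO pools at 96 h. Both pools were above every liver (log2 change 0.73, SE 0.15, adjusted p = 0.0413). The call was kept in 5 of 18 fits that left out 1 library, and it was lost without any 1 of the 4 control livers, LKO replicates 1 to 3, or either pool of 24, 72 or 96 h. The median change of all members at 96 h was 0.56 in the control pool, where 41 were up by at least 1.5-fold, and 0.16 in the LKO pool, where 2 were. Of all 13328 genes, 2191 were up by that much in the control pool and 1397 in the LKO pool. Leaving out 1 LKO liver put the LKO median between 0.08 (without replicate 3) and 0.27 (without replicate 4), and it was 0.09 without replicate 1. All 28 accessory subunits of complex I were higher in the control pool at 96 h than at 0 h, with a median of 0.62, and 25 of 28 were in the LKO pool, with a median of 0.23, while 6716 and 6694 of all genes were higher. After the correction for length and GC content described below, 21 of the 28 were higher in the control pool with a median of 0.11, and 23 in the LKO pool with a median of 0.13.

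**Figure D3:**
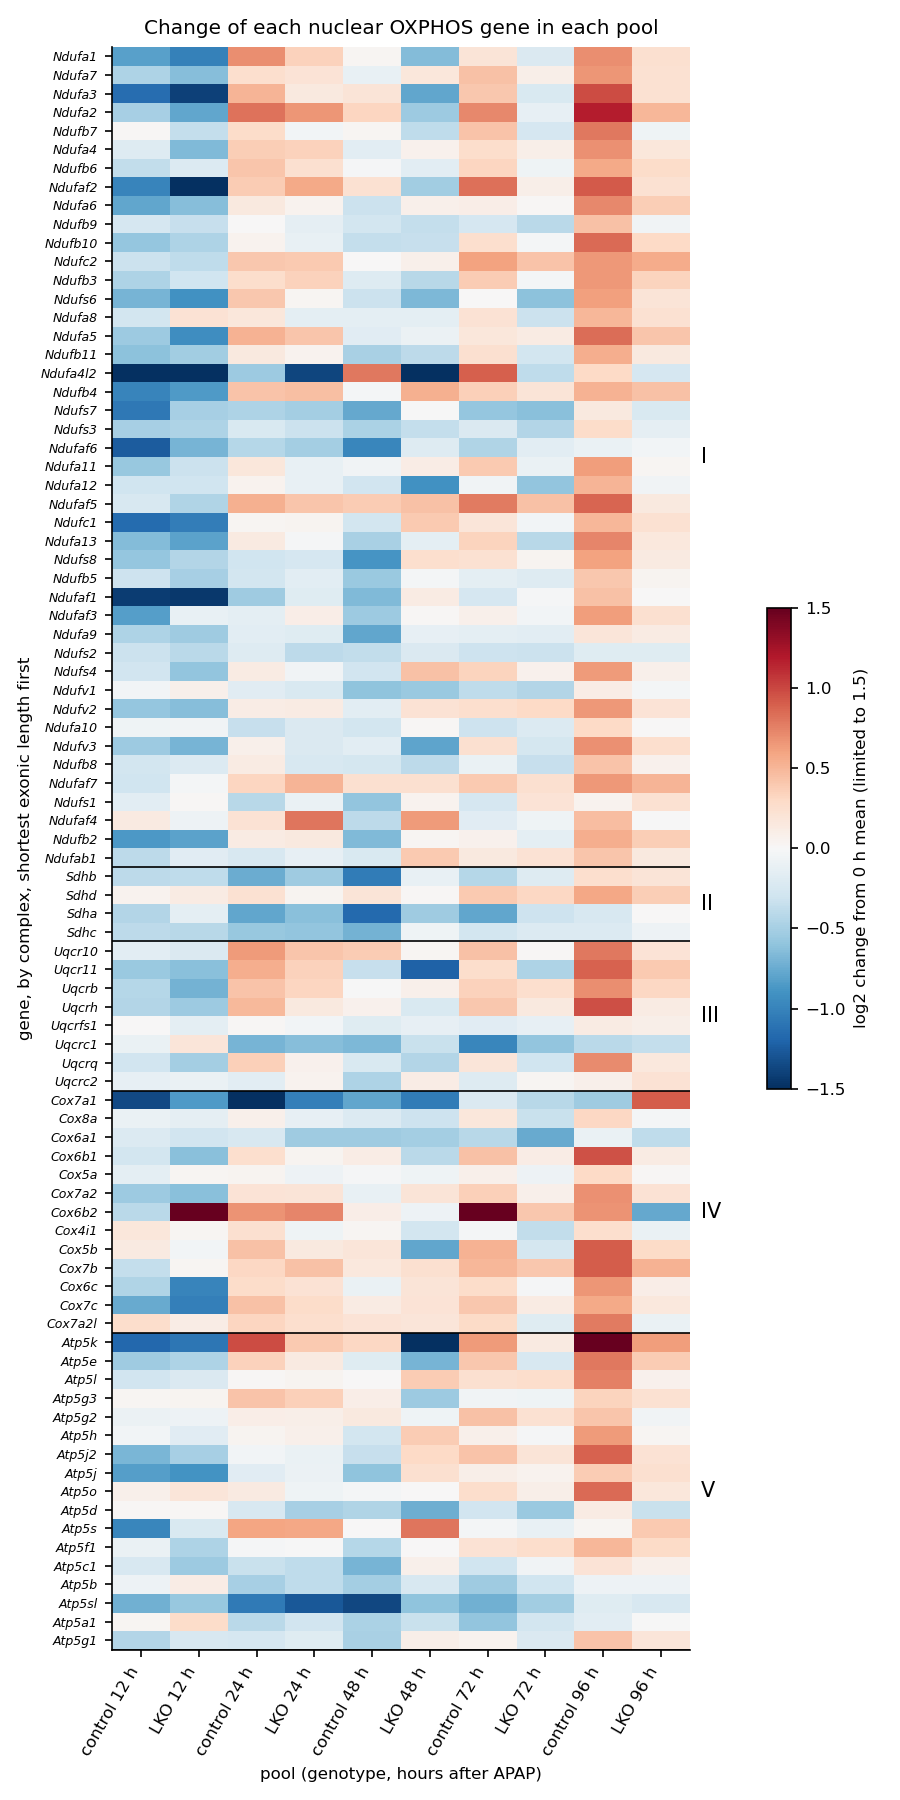
Log2 change from 0 h (colour) of each of the 86 members (rows, grouped by complex) in each pool (columns, control and LKO at 12 to 96 h after APAP). Most complex I rows are negative in both 12 h columns and positive in the control 96 h column.

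Other genes of short exon length moved, at the median, in the same direction as the short members in 7 of the 10 pools. Exon length was under 1000 bases for 39 of the 86 members and for 582 other genes. It was the number of exonic bases annotated for the gene and not the length of the transcript present. Members such as *Atp5g1* (4912 bases) and *Ndufb2* (4375 bases) thus fell in the longer class. In the control pool at 96 h the median change was 0.67 for the short members and 0.59 for the other short genes, against 0.43 for the longer members and -0.02 for the 12590 other longer genes. At 12 h it was -0.44 for the short members and -0.29 for the other short genes, against -0.36 and 0.04 for the longer ones. The signs were opposite in the control pool at 48 h, with -0.02 for the short members and 0.12 for the other short genes, and in the LKO pools at 48 h (-0.31 and 0.09) and 72 h (-0.07 and 0.05). The single livers at 0 h differed along the same axis. The rank correlation of a liver's deviation from its group with exon length over the 86 members, genes that share a library, ran from -0.60 in LKO replicate 4 to 0.45 in LKO replicate 3, with 0.44 in control replicate 3. The median deviation of the members from the other livers of the group was 0.43 in LKO replicate 4 and between -0.23 and 0.12 in the other 7 livers.

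When the change shared by other genes of the same length and GC content was subtracted, which also takes out any real change common to short genes, the members' decrease at 12 h was smaller and the increase at 96 h was close to 0. The median over the members was then -0.21 (control) and -0.19 (LKO) at 12 h, and 0.07 and 0.10 at 96 h. It was -0.18 and -0.21 at 24 h, -0.30 and -0.12 at 48 h, and -0.14 and -0.11 at 72 h. Without the correction the control medians of 24 and 72 h were 0.12 and 0.19, so both changed sign, as did the LKO median of 24 h, which was 0.01. With this correction 14 members were called lower at 12 h, 13 of them among the 21 above. The 8 that lost their call were *Ndufa5*, *Ndufa6*, *Ndufs6* and *Ndufv2* of complex I, *Cox6c*, *Cox7a2* and *Cox7c*, which were all the complex IV calls, and *Atp5j2*. At 24 h, 9 were called lower, including all 5 above. *Cox7b* was no longer called at 96 h (log2 change 0.28, adjusted p = 0.382). The median of complex II in the control pools was -0.26, -0.73, -0.90, -0.48 and -0.18 from 12 to 96 h.

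**Figure D4:**
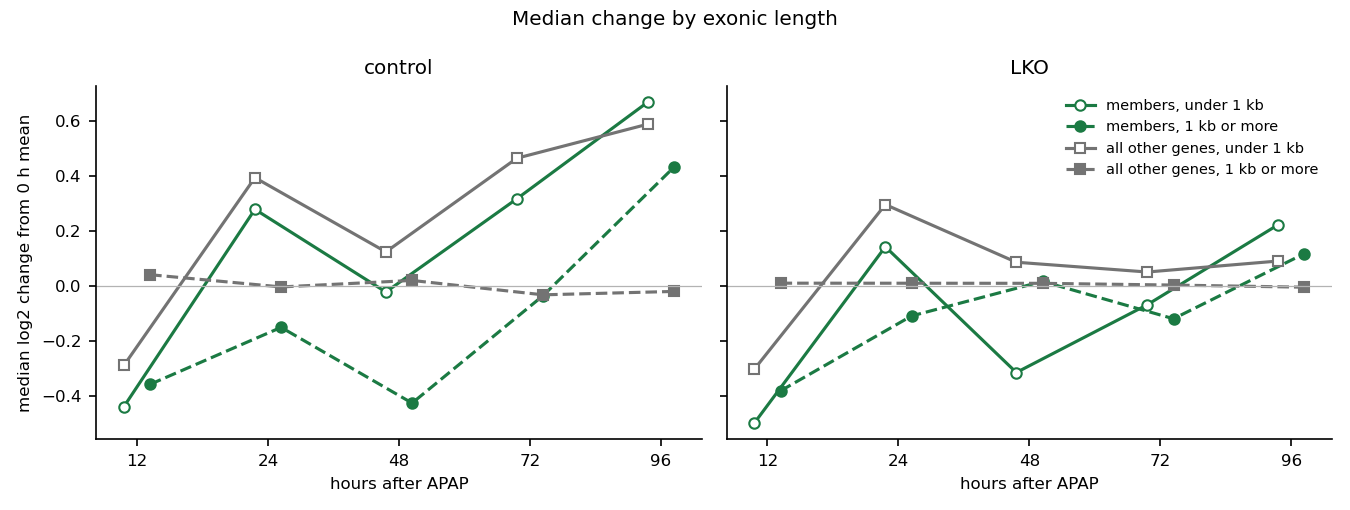
Median log2 change from 0 h (vertical axis) by hours after APAP (horizontal axis) of members and of all other genes, split at an exon length of 1000 bases, in control and LKO pools. In the control pool at 96 h the short members (0.67) and the other short genes (0.59) stand together above the other long genes (-0.02).

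Among neighbouring pathways, more of the other assembly factors and of the mitochondrial ribosomal proteins were called lower than higher at 12 h, when 14.5% of all genes were lower and 17% higher. Of 39 assembly factors of the respiratory chain tested outside the rule, 13 were lower and 1 higher, with a median of -0.43. Of 77 mitochondrial ribosomal protein genes, 22 were lower and 1 higher, with a median of -0.37. Of 13 TCA cycle enzymes, 0 were lower and 3 higher, and of 13 regulators of mitochondrial genes, among them *Ppargc1a*, *Nrf1* and *Gabpa*, 0 were lower and 3 higher. At 24 h, when 14.1% of all genes were called higher and 12.1% lower, 14 of the 77 mitochondrial ribosomal protein genes were higher and 0 lower, with a median of 0.22, and 59 of 79 cytosolic ribosomal protein genes were higher and 0 lower, with a median of 0.81. The TCA cycle enzymes had 1 lower and 0 higher at 24 h, 1 and 0 at 48 h and 1 and 0 at 72 h. Of the 4 structural genes of the chain outside the rule, 1 was lower at 12 h, 1 was higher at 24 h and 1 was higher at 96 h. The 13 genes encoded in mitochondrial DNA were not analysed here.

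The question of whether loss of E2F7 and E2F8 changes these genes was asked first at 0 h. Between LKO and control livers 0 of the 86 members were called, with 0% of 12426 genes called higher and 0% lower in edgeR. At an unadjusted p under 0.05 there were 0 members and 352 genes, and DESeq2 called 3 genes and 0 members. The median difference of the members was 0.01 (log2), with 49 higher and 37 lower in LKO. The differences ran from -0.37 for *Ndufaf4* to 0.58 for *Cox7a1*.

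Between HKO and AAV control livers 0 of the 86 members were called as well, against 0.419% of 12397 genes higher and 0.54% lower. At an unadjusted p under 0.05 there were 18 members and 1598 genes, and DESeq2 called 331 genes and 0 members. Of the 86 members, 78 were lower and 8 higher in HKO, with a median difference of -0.16. Single livers of this cohort also shifted the members together. Against the other livers of its group, a liver's median over the members ran from -0.18 to 0.11 in the AAV controls. In the HKO livers it ran from -0.06 to 0.12. The members share these libraries, so the 78 are not independent of each other. The lowest adjusted p was that of *Ndufaf4*, a complex I assembly factor, which measured 36.0, 32.0 and 38.8 CPM in the AAV controls and 24.8, 24.5 and 24.6 CPM in the HKO livers. For *Ndufaf4* the log2 difference was -0.53 (SE 0.11, adjusted p = 0.0583). *Cox7a2l* measured 100.9, 102.6 and 112 CPM against 70.5, 86.8 and 71.5 CPM (-0.47, SE 0.11, adjusted p = 0.0952). *Sdhb* measured 235, 203 and 211 CPM against 157, 171 and 178 CPM (-0.36, SE 0.10, adjusted p = 0.141).

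Whether LKO and HKO differed from their own controls by different amounts was tested directly, with 0 members called and 0% of 12945 genes called higher and 0% lower in edgeR. At an unadjusted p under 0.05 there were 1 member and 579 genes, and DESeq2 called 21 genes. The LKO effect was above the HKO effect for 78 members and below it for 8, with a median of 0.17. These members share the same livers, so the 78 are not independent of each other. The cohorts also differ in virus and in the age at deletion.

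After APAP, 0 of 85 members tested were called between LKO and control pools over the 5 time points, against 0.25% of 12782 genes higher and 0.329% lower. *Cox7a1* was too scarce to be tested. At an unadjusted p under 0.05 there were 12 members and 2284 genes, and DESeq2 called 606 genes and 0 members. The median difference was -0.12, with 63 lower and 22 higher in LKO, and all 12 complex IV members tested were below 0 while 3 of the 4 complex II genes were above 0. After the correction for length and GC content, the LKO/control ratios of the 13 complex IV members were on both sides of 0 at each time, with 5 to 7 of them above it and medians from -0.11 to 0.05. *Ndufa2*, an accessory subunit of complex I, had the lowest adjusted p (-0.56, SE 0.16, adjusted p = 0.128). It measured 66.6, 165, 118, 155 and 214 CPM in the control pools from 12 to 96 h and 55.2, 151, 64.9, 87.3 and 135 CPM in the LKO pools, lower in LKO at 5 of 5 time points. Its livers at 0 h ran from 51.3 to 147 CPM, a range wider than the difference between the pools of any time point.

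The genotype ratio is also given time by time, although whether it differs between times was not tested. From 12 to 96 h the median LKO/control log2 ratio of the members was 0.00, -0.09, 0.11, -0.19 and -0.39, and at the last time 77 members were lower in LKO and 9 higher. With 1 pool per genotype a single time point has no replicate check. The cytosolic ribosomal proteins, which are short as well, had a ratio of -0.69 at 96 h, and after the correction for length and GC content the members' ratio was -0.03, -0.01, 0.19, 0.14 and -0.01, with the sign turned at 72 h. With library size scaling it was 0.16, -0.02, -0.03, -0.09 and -0.16, with the sign turned at 48 h and a value near 0 moved up at 12 h, while the median ratio of all genes was 0.12, 0.08, -0.14, 0.09 and 0.22. At 48 h the ratio was 0.60 for complex II, where *Sdhb* stood at 130.2 CPM in the control and 232 CPM in the LKO pool. *Atp5k*, a small membrane subunit of the ATP synthase, stood at 49.7 CPM in the control and 10.8 CPM in the LKO pool at 48 h, but it ran from 11.7 to 72.3 CPM over the 8 livers at 0 h.

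Whether the genotype difference after APAP departed from that at 0 h was tested across the 18 libraries of the LKO cohort. No member was called, with 0% of 13328 genes called higher and 0% lower in edgeR. At an unadjusted p under 0.05 there were 2 members and 1285 genes, and DESeq2 called 39 genes and 0 members. The members' median was -0.13.

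**Figure D5:**
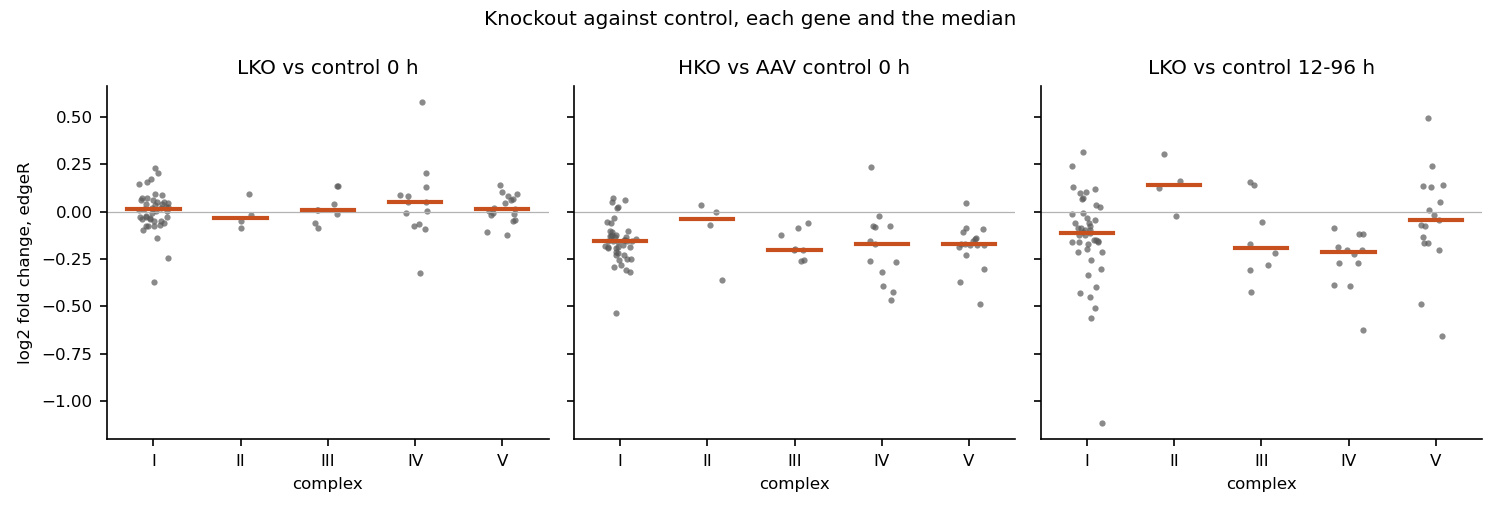
Log2 fold change of knockout against control (vertical axis) for each member (points) and the median (bar) of each complex (horizontal axis), for LKO livers at 0 h, HKO livers at 0 h and LKO pools at 12 to 96 h. The medians lie near 0 in LKO at 0 h, below 0 for every complex in HKO, and below 0 for complexes I, III, IV and V after APAP, and no point passed the test.

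The members of each complex with the highest mean change over both genotypes and all 5 time points were *Ndufaf5* (complex I), *Sdhd* (II), *Uqcr10* (III), *Cox6b2* (IV) and *Atp5o* (V), and those with the lowest were *Ndufa4l2*, *Sdha*, *Uqcrc1*, *Cox7a1* and *Atp5sl*. *Ndufaf5*, an assembly factor, had changes of -0.24, 0.53, 0.38, 0.78 and 0.87 in the control pools from 12 to 96 h. *Sdhd* had 0.05, 0.23, 0.19, 0.39 and 0.59, and *Uqcr10*, a small complex III subunit, had -0.16, 0.64, 0.38, 0.44 and 0.79. None of *Ndufaf5*, *Sdhd*, *Uqcr10* and *Atp5o* was called at any time in edgeR, and DESeq2 called *Ndufaf5* higher at 72 h (0.62, adjusted p = 0.0367). *Cox6b2* and *Cox7a1* reached at most 2.40 and 3.15 CPM, respectively, in the LKO cohort and were not called in edgeR. *Cox7a1* was called lower at 24 h by DESeq2 (-1.84, adjusted p = 0.0367) and with the correction for length and GC content (-1.96, adjusted p = 0.035). In each complex the mean LKO/control ratio after APAP that was largest in absolute size was that of *Ndufa4l2* (-0.998 on the log2 scale), *Sdha* (0.31), *Uqcr11* (-0.42), *Cox7a1* (0.82) and *Atp5k* (-0.67). *Cox7a1* was not tested between the genotypes after APAP, and none of the other 4 was called.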

How the data were processed

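Poly(A) RNA of whole liver was sequenced by the study. Per the labels and methods, the authors used Trimmomatic on the reads and STAR on mm10, and the deposited counts are those STAR gave per gene. The annotation is not given in the sources used here. The counts are raw and cover uniquely mapped reads, and the strand-independent column was used. Symbols were matched to the annotation supplied for mm10 for length, GC content and position. Genes were tested with edgeR 4.0.16 (R 4.3.3, limma 3.58.1; TMM scaling, filterByExpr, quasi-likelihood F-test, Benjamini-Hochberg over all genes tested), and DESeq2 1.42.0 was an alternative. A call needed an adjusted p under 0.05 and a 1.5-fold change, the study's limits. Log2 changes of single pools used a prior count of 2. The fit was tested on simulated data. Depth was 12665686 to 19499897 gene reads per library; floors cover counting error only, and p-values measure the spread between these libraries.

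Groups came from the labels. Named genes were every member called (the 6 largest changes each way where over 12 were called), the extremes of each complex, and fixed core subunits, isoforms and assembly factors. The members and lists were chosen with earlier results of these data known. The correction for length and GC content (20 classes each, members left out of the class medians) was chosen after seeing the data. Same-numbered mice at 0 h shared only a number. Per the promoter table, sequences are RefSeq's on GRCm38.p6.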

Additional observations from a re-analysis of the deposited data

Results flagged for a closer look

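A single liver stood apart from the other 3 of its group in 5 of 68 groups of 4 livers checked, by the gap to its nearest neighbour as a share of the group's range (Dixon's ratio). Chance flags about 1 in 20 groups. In 4 of the 5 it was control replicate 3. Complex II took 0.106% of its reads against 0.121% to 0.124% in the other controls (ratio 0.8406). *Ndufa3* stood at 25.2 CPM there against 65.8 to 69.0 CPM (ratio 0.9282), and *Ndufa5* at 50.2 CPM against 77.7 to 77.9 CPM (ratio 0.9928). *Ndufaf6* stood higher there, at 22.5 CPM against 17.1 to 17.7 CPM (ratio 0.8879). In LKO replicate 3, *Ndufa1* stood at 39.2 CPM against 66.3 to 70.3 CPM (ratio 0.8719).

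*Ndufb7*, an accessory subunit of complex I, was higher than at 0 h in all 5 control pools and lower in all 5 LKO pools, with a mean LKO minus control difference in log2 change of -0.5299. It was the 1 member of 86 with opposite directions in every pool. In the test of the genotype difference after APAP against that at 0 h it had a log2 value of -0.53 (SE 0.26, adjusted p = 0.531) and was not called.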

How the results depend on the processing

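Across the settings 0 members were called in the comparisons of LKO or HKO with their controls, of the genotype effect after APAP with that at 0 h, and of the LKO with the HKO effect, under every alternative and with each library left out. The number of members called at 12 h, 21, was between 20 and 26 under other tests, scalings, filters and counting, and 14 with the correction for length and GC content. At 24 h it was 5, against 8 with no fold limit and 9 with the correction. At 48 h it was 3, against 5 with no fold limit and 5 with DESeq2. At 72 h it was 4, against 1 with no filter beyond 1 count, 2 with at least 10 counts in every library, 2 with the stranded column and 2 with the correction. At 96 h it was 1, against 2 with DESeq2, 0 with library size scaling, 0 with no filter and 0 with the correction. Leaving out 1 library gave 9 (without the control 12 h pool) to 29 (without control replicate 3) at 12 h, 0 (without the LKO pool) to 6 at 24 h, 0 (without the control pool) to 10 (without the LKO pool) at 48 h, 0 (without the control pool) to 4 at 72 h (1 without the LKO pool or either 24 h pool, 2 without control replicate 1 or 4 or LKO replicate 3), and 0 to 1 at 96 h; a pool left alone is assumed to vary like the other groups. Causes were not tested.

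With the correction the members' median change in the control pools of 12, 24, 72 and 96 h was -0.207, -0.176, -0.144 and 0.0693, against -0.393, 0.120, 0.190 and 0.557 without it, so the sign turned at 24 and 72 h. The LKO median was -0.188 at 12 h (-0.428 without) and -0.215 at 24 h (0.0100 without), and the LKO/control ratio was 0.138 at 72 h (-0.193 without) and -0.00826 at 96 h (-0.388 without). With library size scaling the control medians of 24, 48 and 72 h were 0.295, 0.102 and 0.306, the second of them on the other side of 0, while the median of all genes was 0.185, 0.345 and 0.107, and the LKO/control ratio from 12 to 96 h was 0.157, -0.0212, -0.0306, -0.0900 and -0.163. When 1 liver was left out, the control median ran from 0.0590 (without control replicate 3) to 0.157 at 24 h and from 0.0654 (without control replicate 3) to 0.217 at 72 h. The LKO median ran from -0.0582 (without replicate 1) to 0.106 (without replicate 4) at 24 h, from -0.139 (without replicate 3) to 0.0377 (without replicate 4) at 48 h, from -0.175 to 0.00298 (without the same replicates) at 72 h, and from 0.0808 to 0.272 (likewise) at 96 h. With the replicate block at 0 h, 0 members were called in LKO and 0 in HKO. Same-numbered livers had correlations of deviations from -0.346 to 0.196 in the LKO cohort and -0.0307 to 0.198 in the HKO cohort, and 1 number, HKO replicate 1, correlated best with its own, so the pairing was not used. Depth limits the scarce members most, and *Cox6b2*, *Cox7a1* and *Ndufa4l2* stayed at a few CPM.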
